A study of Homo sapiens with 14 samples.

Results

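ADRA2A, S1PR3 and RGS2 are 3 of the 62703 genes counted in 3 lines of human prostate cancer cells (LNCaP, 22Rv1 and PC3) that received a kinase inhibitor or its solvent. They were selected with their levels and responses to the inhibitor in these measurements known, and the comparison or threshold that chose them is not given. Their values are therefore given as a description, without a test. All 3 passed the filter on low counts that left 7086 genes in the comparison of LNCaP and 22Rv1.

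ADRA2A encodes the alpha-2A adrenergic receptor, which binds adrenaline and noradrenaline and lowers cyclic AMP (cAMP) through inhibitory G proteins of the Gi class. S1PR3 encodes a receptor for sphingosine-1-phosphate (S1P), a lipid signal carried in blood, and passes the signal on through Gi, Gq and G12/13. RGS2 encodes a regulator of G protein signalling that speeds up the hydrolysis of GTP on activated G proteins, mainly Gq, and so shortens signals from receptors of this kind. Adrenergic nerves run through the normal prostate, where they control the tone of its smooth muscle.

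The compound was SEL120-34A, which inhibits CDK8 and CDK19, the kinases bound to the Mediator complex of RNA polymerase II. Cells received it at 1.5 µM, or dimethyl sulfoxide (DMSO) as the solvent control, for 3 days. Of the lines, 22Rv1 resists the prostate cancer drug enzalutamide and LNCaP responds to it. LNCaP and 22Rv1 had 3 libraries per arm and PC3 had 1 per arm, and each line, dose and time stands for itself only. The labels number the replicates without saying that they were separate cultures. The authors state in general that their experiments had 3 or more biological replicates, apart from noted exceptions. How the replicates of these libraries were made is not described, so p-values measure the spread between these libraries. Libraries were made from total RNA by BRB-seq, which barcodes samples early, pools them and sequences the 3′ ends of transcripts.

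Total counts per library ranged from 246063 to 909176. All 3 treated 22Rv1 libraries were shallower (246063 to 368778) than their controls (476455 to 777207). Treated LNCaP libraries had 291056, 406886 and 519928 counts, against 759548, 412881 and 747345 in their controls. Of the markers of luminal prostate cells, 8 of 8 were detected in each line, and their summed level was 2600 to 3580 CPM (counts scaled by library size and TMM factors) in LNCaP, 577 to 762 in 22Rv1 and 87.7 to 109 in PC3. In LNCaP this sum was 3140 to 3580 CPM in control and 2600 to 2780 CPM in treated libraries, and its part in the results was not tested. The 6 mesenchymal-like markers summed to 2560 to 2850 CPM in PC3 and to at most 85.4 CPM in the other lines.

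ADRA2A (ENSG00000150594.7) is a gene of a single exon on the plus strand at chr10:111077029-111080907 of GRCh38. S1PR3 (ENSG00000213694.7) lies on the plus strand at chr9:88990863-89005155, and the second of its 2 exons holds the 3′ end, in 4102 bp. RGS2 (ENSG00000116741.8) lies on the plus strand at chr1:192809039-192812275 and has 5 exons, the last of 874 bp. RGS2 lies within the long non-coding RNA gene ENSG00000285280 on the opposite strand, which had 0 counts in all 14 libraries. The 3′ end of S1PR3 is 615 bp from that of SHC3 on the opposite strand, and SHC3 had 0 or 1 count per library. Whether counting used the strand is not given in the sources used here.

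The promoter windows of the 3 genes, from RefSeq on GRCh38.p14, are shown because the genes responded differently in the same cells. Each runs 5′ to 3′ on the plus strand, from 250 bases before to 50 bases after the start. Capitals mark 3 motifs searched on both strands. The first is the core of the cAMP response element (TGACG). The next is a TATA box (TATAAA), and the last is an E-box (CACGTG). The windows lie at chr10:111076779-111077078 for ADRA2A, chr9:88990613-88990912 for S1PR3 and chr1:192808789-192809088 for RGS2.
ADRA2A: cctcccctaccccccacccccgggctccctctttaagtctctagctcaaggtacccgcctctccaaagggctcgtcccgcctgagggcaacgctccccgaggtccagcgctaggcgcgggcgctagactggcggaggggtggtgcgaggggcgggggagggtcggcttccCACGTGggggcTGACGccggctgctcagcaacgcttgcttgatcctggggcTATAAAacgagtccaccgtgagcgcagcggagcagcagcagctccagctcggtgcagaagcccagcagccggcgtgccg
S1PR3: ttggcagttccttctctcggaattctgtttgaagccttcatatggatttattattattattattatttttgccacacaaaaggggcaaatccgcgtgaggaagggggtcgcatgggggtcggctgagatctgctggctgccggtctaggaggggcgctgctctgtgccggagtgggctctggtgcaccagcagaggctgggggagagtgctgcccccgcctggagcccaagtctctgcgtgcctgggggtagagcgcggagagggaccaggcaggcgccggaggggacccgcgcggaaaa
RGS2: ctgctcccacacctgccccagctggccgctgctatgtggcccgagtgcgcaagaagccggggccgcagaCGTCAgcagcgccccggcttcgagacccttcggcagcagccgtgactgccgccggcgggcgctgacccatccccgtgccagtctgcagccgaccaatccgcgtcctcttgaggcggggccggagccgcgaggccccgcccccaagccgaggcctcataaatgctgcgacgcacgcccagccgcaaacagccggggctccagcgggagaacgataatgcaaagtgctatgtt

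The ADRA2A window held CACGTG at -80, TGACG at -69 and TATAAA at -29 from the start. The RGS2 window held TGACG on the opposite strand at -181. The S1PR3 window held none of these letters. A second S1PR3 start, at the window chr9:88991218-88991517, also held none of them but had 8 matches to GGGCGG (a GC box), some of them overlapping. GGGCGG had 1 match in the ADRA2A window (-102), 1 in the RGS2 window (-47) and 0 in the first S1PR3 window. Among 35116 promoter windows of this length, TGACG was found in 24.6%, TATAAA in 11.5%, CACGTG in 7.26% and GGGCGG in 45.0%. The windows of the members had a GC content of 60% to 75.3%, against a median of 58.7%. These matches are letters in a window and no binding was measured.

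**Figure D1:**
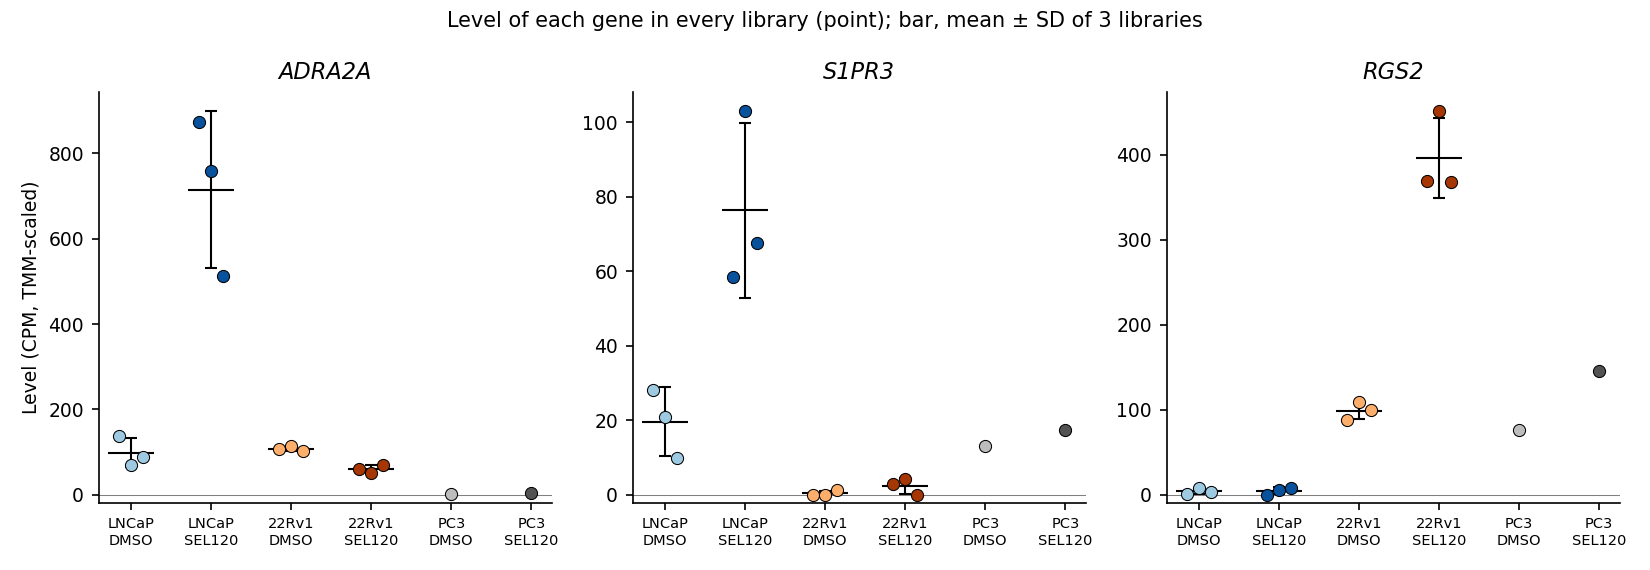
Level of ADRA2A, S1PR3 and RGS2 in each of the 14 libraries (vertical axis, CPM scaled with TMM factors) by cell line and treatment, with 1 point per library and bars for the mean ± SD of 3 libraries. ADRA2A and S1PR3 were highest in treated LNCaP libraries (means 715 and 76.4 CPM) and RGS2 in treated 22Rv1 libraries (396 CPM).

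To describe the receptor ADRA2A, its level was read in every library. LNCaP controls had 137, 70.7 and 88.1 CPM (97, 27 and 63 counts), a mean of 98.5 ± 34.2 (SD, n = 3). Treated LNCaP libraries had 873, 759 and 513 CPM (224, 280 and 243 counts), a mean of 715 ± 184 (n = 3). Each treated library was above each control, and the lowest treated value was 513 CPM against a highest control of 137. The fitted log2 fold change was 2.83 ± 0.18 (SE), or 7.09-fold. In bulk libraries a change in RNA per cell and a change in the share of cells with the RNA cannot be told apart.

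In 22Rv1, ADRA2A started from a similar level and was lower after treatment. Controls had 108, 114 and 103 CPM (55, 61 and 86 counts; 108 ± 5.81, n = 3). Treated libraries had 60.6, 51.5 and 68.5 CPM (22, 12 and 24 counts; 60.2 ± 8.48, n = 3), and none overlapped with the controls. Arms did not overlap, in either direction, for 23.0% of all tested genes in 22Rv1. The fitted log2 change was -0.80 ± 0.26 (1.74-fold lower), and it was not called in the main fit. The change was -0.89 to -0.72 when any 1 of the 12 libraries was left out, and -0.85 with all libraries thinned to equal depth. The difference between the responses of the lines was 3.63 ± 0.31 on the log2 scale, or 12.4-fold.

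Without treatment the level of ADRA2A in LNCaP and 22Rv1 differed by -0.08 ± 0.21 (log2, LNCaP minus 22Rv1), and their libraries overlapped. The ratio of summed counts was 0.964 (95% interval 0.786 to 1.18, exact binomial, counting error only, as for all such ratios here). With treatment LNCaP was 11.1 times as high as 22Rv1 (8.49 to 14.8). PC3 had 2 counts in each library (2.18 CPM with DMSO, exact Poisson interval 0.264 to 7.87, and 3.51 CPM with SEL120-34A, 0.425 to 12.7). These are under the floor of 3 counts, so no fold change is given. The order of ADRA2A levels was treated LNCaP, then untreated 22Rv1 and untreated LNCaP without separation, then treated 22Rv1, then PC3.

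S1PR3, the S1P receptor, had fewer counts. LNCaP controls had 28.2, 20.9 and 9.79 CPM (20, 8 and 7 counts; 19.6 ± 9.26, n = 3). Treated LNCaP libraries had 58.5, 103 and 67.6 CPM (15, 38 and 32 counts; 76.4 ± 23.5, n = 3). The libraries of the arms did not overlap, and the highest control was 28.2 against a lowest treated value of 58.5 CPM. The fitted log2 change was 2.01 ± 0.34, or 4.02-fold. It was 1.63 to 2.48 when any 1 of the 12 libraries was left out, and 1.82 when limma-trend was run on the deposited log2 CPM.

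In 22Rv1, S1PR3 was at or near 0. The control libraries had 0, 0 and 1 count and the treated libraries 1, 1 and 0, so no fold change is given. A count of 0 allows up to 5.89 and 5.62 CPM in the control libraries and up to 8.56 CPM in the treated one, taking 3 counts as the limit. Summed counts of untreated LNCaP were 36.5 times those of untreated 22Rv1 after scaling, with an interval of 6.13 to 1480 because 22Rv1 had 1 count.

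PC3 had 12 S1PR3 counts with DMSO and 10 with SEL120-34A, or 13.1 (exact Poisson interval 6.75 to 22.8) and 17.5 CPM (8.41 to 32.2). The ratio of the treated to the control library was 1.34 (0.519 to 3.39), an interval that holds 1. Both PC3 values lay within the range of the LNCaP controls. The order of S1PR3 levels was treated LNCaP, then untreated LNCaP and PC3 without separation, then 22Rv1.

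RGS2, the regulator of signalling behind such receptors, had the opposite distribution between the lines. LNCaP controls had 1, 3 and 2 counts and treated LNCaP libraries 0, 2 and 4. The sums were 6 and 6, and the scaled ratio was 1.64 (0.44 to 6.15). At this depth a change within that interval was not detectable in LNCaP. The library with 0 counts allows up to 11.7 CPM.

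In 22Rv1, RGS2 was well measured and higher after treatment. Controls had 88.3, 109 and 100 CPM (45, 58 and 84 counts; 99.0 ± 10.2, n = 3). Treated libraries had 369, 451 and 368 CPM (134, 105 and 129 counts; 396 ± 47.4, n = 3). Every treated library was above every control by more than the spread within either arm. The fitted log2 change was 2.0 ± 0.17, or 3.99-fold, and 1.83 at equal depth.

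Summed RGS2 counts of untreated 22Rv1 were 29.9 times those of untreated LNCaP after scaling (13.5 to 82.6), and 71.2 times with treatment (32.4 to 195). PC3 had 70 RGS2 counts with DMSO (76.2 CPM, 59.4 to 96.3) and 83 with SEL120-34A (146 CPM, 116 to 180). The ratio of these single libraries was 1.91 (1.37 to 2.66). The order of RGS2 levels was treated 22Rv1, treated PC3, untreated 22Rv1, untreated PC3 and then LNCaP. Untreated 22Rv1 and untreated PC3 were not separated by counting error, since their ratio was 1.30 (0.986 to 1.74).

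**Figure D2:**
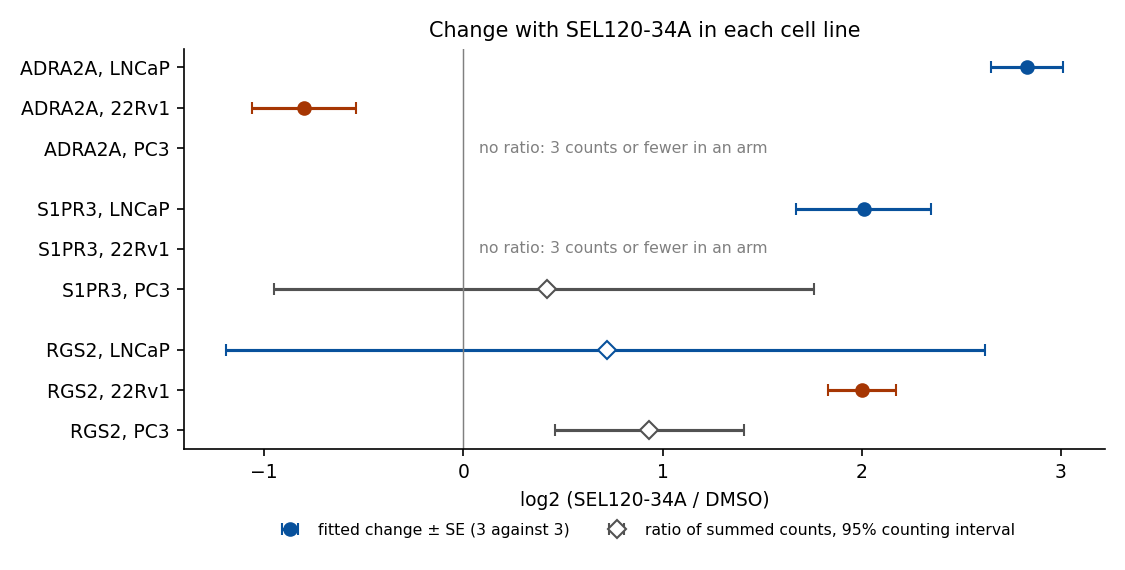
Log2 ratio of SEL120-34A to DMSO (horizontal axis) for each member in each line, as the fitted change ± SE where both arms had 3 libraries with enough counts (filled circles) and otherwise as the ratio of summed counts with its 95% counting interval (open diamonds). ADRA2A was at 2.83 in LNCaP and -0.80 in 22Rv1, and RGS2 at 2.0 in 22Rv1.

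The calls of the members are set against all tested genes here, with nothing read from them because the members were selected on these contrasts. In LNCaP, 2 of the 3 members (ADRA2A and S1PR3) were called higher, against 1.99% of the 7086 genes called higher and 0.776% called lower. In 22Rv1, 1 of 3 (RGS2) was called higher, against 4.15% higher and 1.55% lower. For the difference of responses, 1 of 3 (ADRA2A) was called more positive in LNCaP, against 0.268%, with 0.466% of genes more positive in 22Rv1. Between untreated lines S1PR3 was called higher in LNCaP and RGS2 higher in 22Rv1, against 24.0% and 25.0% of genes. These counts moved with the analysis, since limma-trend did not call S1PR3 in LNCaP and 9 of 22 alternatives called ADRA2A lower in 22Rv1, among them the fits with a replicate block, with library totals and without LNCaP DMSO replicate 1, LNCaP SEL120-34A replicate 1 or LNCaP SEL120-34A replicate 3. Arms did not overlap for 2 of 3 members in LNCaP (19.4% of genes), 2 of 3 in 22Rv1 (23.0%) and 2 of 3 between untreated lines (56.4%).

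To place these genes in their pathway, 188 other genes of adrenergic, S1P and G protein signalling were read from 11 lists written from general knowledge. Of these, 165 had at least 1 count and 61 passed the filter and were tested with edgeR's quasi-likelihood test. In LNCaP 4 of the 61 rose and 0 fell, beside 1.99% of all tested genes called higher and 0.776% called lower. The median log2 change was 0.13 against 0 over all tested genes. At an unadjusted p under 0.05, 6 were higher and 1 was lower. DESeq2 and limma-trend called 1 rise and 0 falls each. There was also 1 rise at equal depth and 1 with at least 10 counts required in every library, and there were 2 with library totals in place of TMM factors. The count of rises was 2 without any 1 of LNCaP DMSO replicates 1, 2 and 3 or LNCaP SEL120-34A replicates 1 and 2.

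In 22Rv1 2 of the 61 rose and 0 fell (median -0.03 against 0), with 5 higher and 7 lower at an unadjusted p under 0.05. DESeq2 called 1 rise and limma-trend 0, and both called 0 falls. Library totals gave 1 rise and 2 falls, equal depth 1 rise and 1 fall, and a minimum of 10 counts 0 rises and 1 fall. There was 1 rise without 22Rv1 DMSO replicate 3 or 22Rv1 SEL120-34A replicate 1, there were 3 without 22Rv1 SEL120-34A replicate 3, and there was 1 fall without 22Rv1 DMSO replicate 2. The listed genes called, all of them rises, were 6.56% of the 61 in LNCaP, beside 1.99% of all tested genes called higher and 0.776% lower. In 22Rv1 they were 3.28%, beside 4.15% of all tested genes called higher and 1.55% lower.

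The closest relatives of the members were mostly not detected. ADRA1A, ADRA1B, ADRA1D, ADRA2B, ADRA2C, ADRB1 and ADRB3, other adrenergic receptors, had at most 4 counts in any library. ADRA2C, which like ADRA2A couples to Gi, had 1, 0 and 0 counts in control and 1, 2 and 4 in treated LNCaP libraries, too few for a fold change. S1PR1, S1PR2, S1PR4 and S1PR5 also had at most 4 counts per library.

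The receptors for lysophosphatidic acid, relatives of S1PR3, were low in LNCaP and 22Rv1. LPAR2, LPAR3 and LPAR6 had at most 8 counts in any library of these lines. LPAR1 had 0 or 1 count there and 90 and 81 counts (98.0 and 142 CPM) in the control and treated PC3 libraries.

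**Figure D3:**
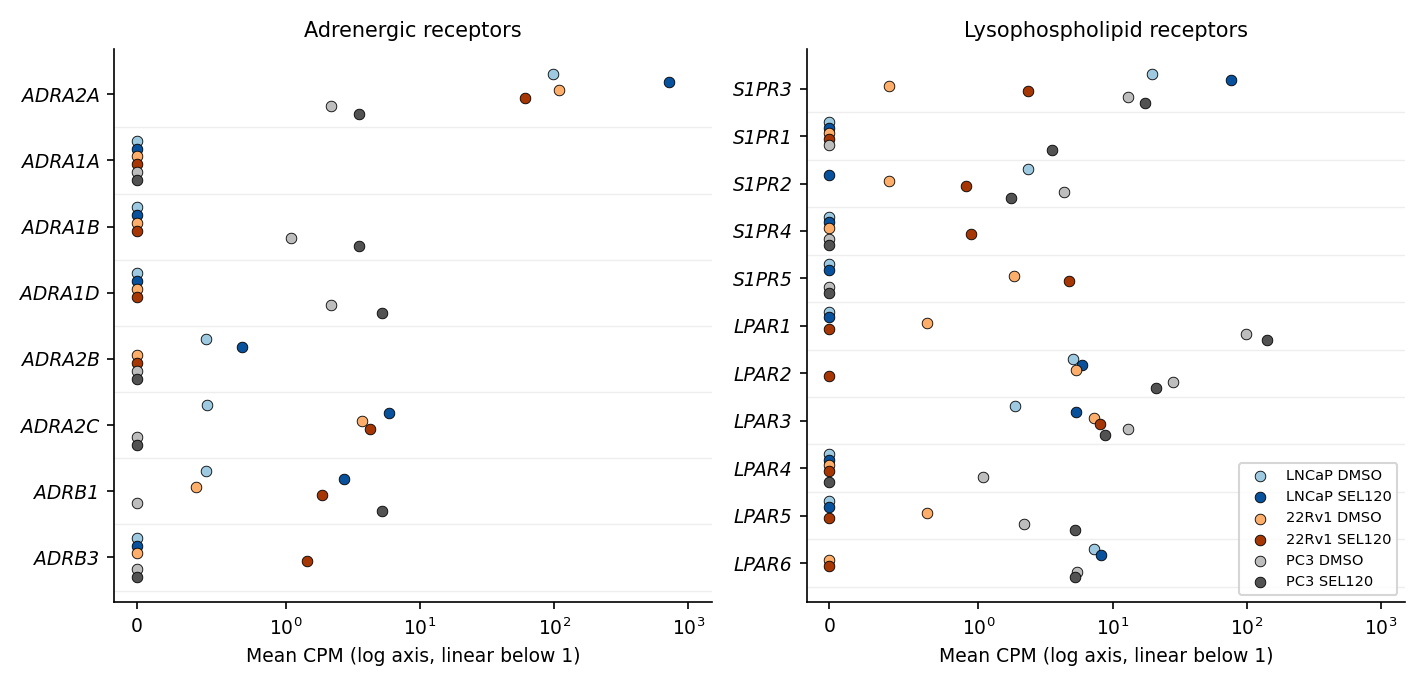
Mean level (horizontal axis, CPM on a log axis that is linear below 1) of adrenergic receptors and of the receptors for S1P and lysophosphatidic acid in each group, with 1 point per group (3 libraries, 1 in PC3). LPAR1 was at 98.0 and 142 CPM in PC3, while most other relatives were at 0 or a few CPM.

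Genes that make, carry or break down the ligands were examined next. Of the 4 tested genes of catecholamine handling none was called with treatment in either line by edgeR, with 0 at an unadjusted p under 0.05 in LNCaP and 1 in 22Rv1. DDC, the decarboxylase that makes dopamine, was at 100 ± 30.5 CPM in LNCaP and 12.6 ± 2.74 CPM in 22Rv1 controls. MAOA, which oxidizes noradrenaline, was at 207 ± 2.73 and 87.4 ± 4.71 CPM, and SLC22A3, a transporter that takes up catecholamines, at 134 ± 45.7 and 4.20 ± 3.16 CPM. All 4 were higher in untreated LNCaP than in untreated 22Rv1, by 5.11 ± 0.38 on the log2 scale for SLC22A3 (adjusted p 3.46e-14) and by 3.01 ± 0.33 for DDC, in a comparison where 24.0% of all tested genes were called higher in LNCaP. The value for SLC22A3 was 4.51 without 22Rv1 DMSO replicate 3 and 5.79 without 22Rv1 DMSO replicate 2.

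Of the 9 tested genes of S1P supply and breakdown, 2 rose in LNCaP, where 1.99% of all tested genes were called higher. PLPP1, a phosphatase that removes the phosphate from S1P and related lipids at the cell surface, rose from 406 ± 87.9 to 625 ± 44.1 CPM (log2 change 0.65 ± 0.16, adjusted p 0.0162). CERS6, a ceramide synthase that can use sphingosine, rose from 111 ± 5.41 to 175 ± 9.16 CPM (0.68 ± 0.18, adjusted p 0.0229). PLPP1 lost its call in 7 and CERS6 in 10 of 21 alternatives. PLPP1 lost it without LNCaP DMSO replicate 2 (adjusted p 0.0716) or 3 (0.179) and without LNCaP SEL120-34A replicate 1 (0.0842) or 2 (0.0945). CERS6 lost it without LNCaP DMSO replicate 1 (0.0521), 2 (0.0827) or 3 (0.139) and without LNCaP SEL120-34A replicate 1 (0.102) or 2 (0.147).

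SGPL1, the lyase that degrades S1P irreversibly, rose in 22Rv1. Its controls had 80.5, 110 and 60.8 CPM and its treated libraries 138, 189 and 191 CPM. All treated values were above all controls (log2 change 1.07 ± 0.23, adjusted p 0.0019), and of 21 alternatives the call was lost only with limma-trend (0.176). In LNCaP SGPL1 was at 24.0 ± 7.30 and 20.9 ± 10.8 CPM and was not called (-0.35 ± 0.42). The difference between the responses, -1.43 ± 0.47, was not past the threshold (adjusted p 0.184).

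Among the other regulators of G protein signalling 3 of 20 were tested. RGS5, which also acts on Gi and Gq, rose in 22Rv1 from 31.9 ± 7.47 to 68.5 ± 12.3 CPM (log2 change 1.13 ± 0.30, adjusted p 0.0199) and had 0 to 3 counts per LNCaP library. Like RGS2, RGS5 was thus seen in 22Rv1 and was near 0 in LNCaP. Its call was lost in 6 of 20 alternatives, including the fits without 22Rv1 DMSO replicate 2 (adjusted p 0.0783) or 3 (0.0778) and without 22Rv1 SEL120-34A replicate 1 (0.17). RGS11 also had 0 or 1 count in LNCaP and was at 23.0 ± 7.16 CPM in untreated 22Rv1. RGS10 was the reverse, at 108 ± 9.75 CPM in untreated LNCaP and 38.5 ± 7.24 CPM in untreated 22Rv1 (log2 difference 1.52 ± 0.23, adjusted p 6.91e-07).

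Of the 10 tested G protein subunits none was called with treatment by edgeR, although at an unadjusted p under 0.05 there was 1 in LNCaP and there were 3 in 22Rv1, all lower. The lines differed at baseline. GNAI2, a Gi subunit through which ADRA2A can signal, was at 57.2 ± 6.64 CPM in untreated LNCaP and 295 ± 56.6 CPM in untreated 22Rv1 (log2 difference -2.34 ± 0.18, adjusted p 1.56e-14). Of the other Gi subunits tested, GNAI3 was higher in untreated LNCaP (log2 difference 0.64, adjusted p 0.00212) and GNAI1 was not called (0.62, adjusted p 0.0704). GNG4, a gamma subunit, had 4, 0 and 2 counts in LNCaP and 129 ± 26.7 CPM in 22Rv1, a log2 difference of -5.16 that was -5.94 without LNCaP DMSO replicate 1. GNG12, another gamma subunit, was higher in LNCaP by 1.88 ± 0.37. Of the 5 tested receptor kinases, arrestins and G protein regulators, GRK2, a kinase that desensitizes activated receptors, was higher in untreated LNCaP (0.66 ± 0.16, adjusted p 0.00052), and none was called with treatment (1 at an unadjusted p under 0.05 in each line).

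Downstream, the cAMP machinery had 14 tested genes. PKIB, an inhibitor of protein kinase A, rose in LNCaP (log2 change 0.95 ± 0.24, adjusted p 0.022). Its controls had 49.3, 118 and 102 CPM and its treated libraries 133, 103 and 239 CPM, so the arms overlapped. Without LNCaP DMSO replicate 1 the call was lost (adjusted p 0.201), as it was without LNCaP SEL120-34A replicate 3 (0.439), and 6 of 22 alternatives lost it in all. In 22Rv1 0 of the 14 were called by edgeR, with 2 lower at an unadjusted p under 0.05.

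Between untreated lines 11 of these 14 genes were called, 4 higher in LNCaP and 7 higher in 22Rv1, beside 24.0% and 25.0% of all tested genes. PRKACB, a catalytic subunit of protein kinase A, was at 199 ± 9.08 CPM in LNCaP and 9.06 ± 3.03 CPM in 22Rv1 (log2 difference 4.35 ± 0.27, adjusted p 3.04e-17). PRKAR2A, a regulatory subunit of the same kinase, was higher in 22Rv1 (-1.74 ± 0.22), as was PDE4A, which breaks down cAMP (-1.59 ± 0.32).

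Of the 4 tested effectors of Gq, PRKCH, the eta form of protein kinase C, rose in LNCaP. Controls had 6, 6 and 9 counts and treated libraries 9, 18 and 25, or 8.45, 15.7 and 12.6 against 35.1, 48.8 and 52.8 CPM. The arms did not overlap (log2 change 2.01 ± 0.40, adjusted p 0.00161), and the call was kept in all 20 alternatives run (adjusted p 0.000459 to 0.0396). PRKCH had at most 3 counts per 22Rv1 library. PRKCD, another form of the kinase, was higher in untreated 22Rv1 (-1.42 ± 0.18), and PRKD1, protein kinase D1, higher in untreated LNCaP (2.03 ± 0.27).

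The remaining lists held the effectors of G12/13 (6 tested) and target genes of cAMP and G12/13 signalling (5 tested). None of these 11 was called with treatment in either line by edgeR, with 1 of the effectors higher in each line and 1 of the targets higher in 22Rv1 at an unadjusted p under 0.05. YAP1, a transcriptional coactivator, was at 31.5 ± 3.14 CPM in untreated LNCaP and had 0, 3 and 1 counts in untreated 22Rv1. SIK1, a kinase gene switched on by cAMP, was higher in 22Rv1 (-2.32 ± 0.41), and CCN1, which encodes a secreted matrix protein, was higher in LNCaP (2.13 ± 0.44). With 1 library left out SIK1 was between -2.99 (without LNCaP DMSO replicate 3) and -1.94 (without 22Rv1 DMSO replicate 2), and CCN1 between 1.66 (without 22Rv1 DMSO replicate 3) and 2.95 (without 22Rv1 DMSO replicate 1).

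**Figure D4:**
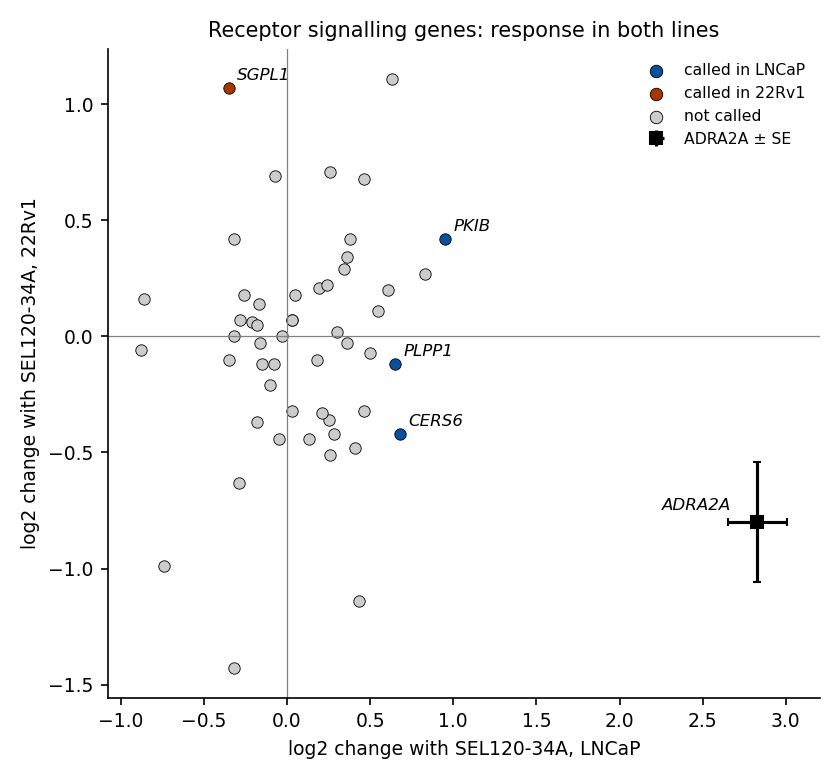
Log2 change with SEL120-34A in LNCaP (horizontal axis) against that in 22Rv1 (vertical axis) for 52 tested genes of the signalling lists with fitted values in both lines, coloured by call, and ADRA2A with its SE (square). PLPP1, CERS6 and PKIB were called in LNCaP and SGPL1 in 22Rv1, and PRKCH and RGS5 are not drawn because 1 line had 3 or fewer counts in an arm.

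For the difference of responses between the lines, 0 of the 61 listed genes were called by edgeR, and 0 by DESeq2 or limma-trend. At an unadjusted p under 0.05, 8 were more positive in LNCaP and 3 in 22Rv1. The median difference was 0.17 against -0.02 over all genes. A response called in 1 line and not in the other is therefore not shown to differ between the lines for any listed gene.

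Between untreated lines 44 of the 61 were called (72.1%), 26 higher in LNCaP and 18 higher in 22Rv1, beside 24.0% and 25.0% of all tested genes. With library totals in place of TMM factors the median of all genes moved by -0.21 in this comparison and by -0.15 in the 22Rv1 response. When at least 10 counts were required in every library, 8 and 5 of the listed genes were called between untreated lines, since fewer genes were then tested (2870 of all genes).

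**Figure D5:**
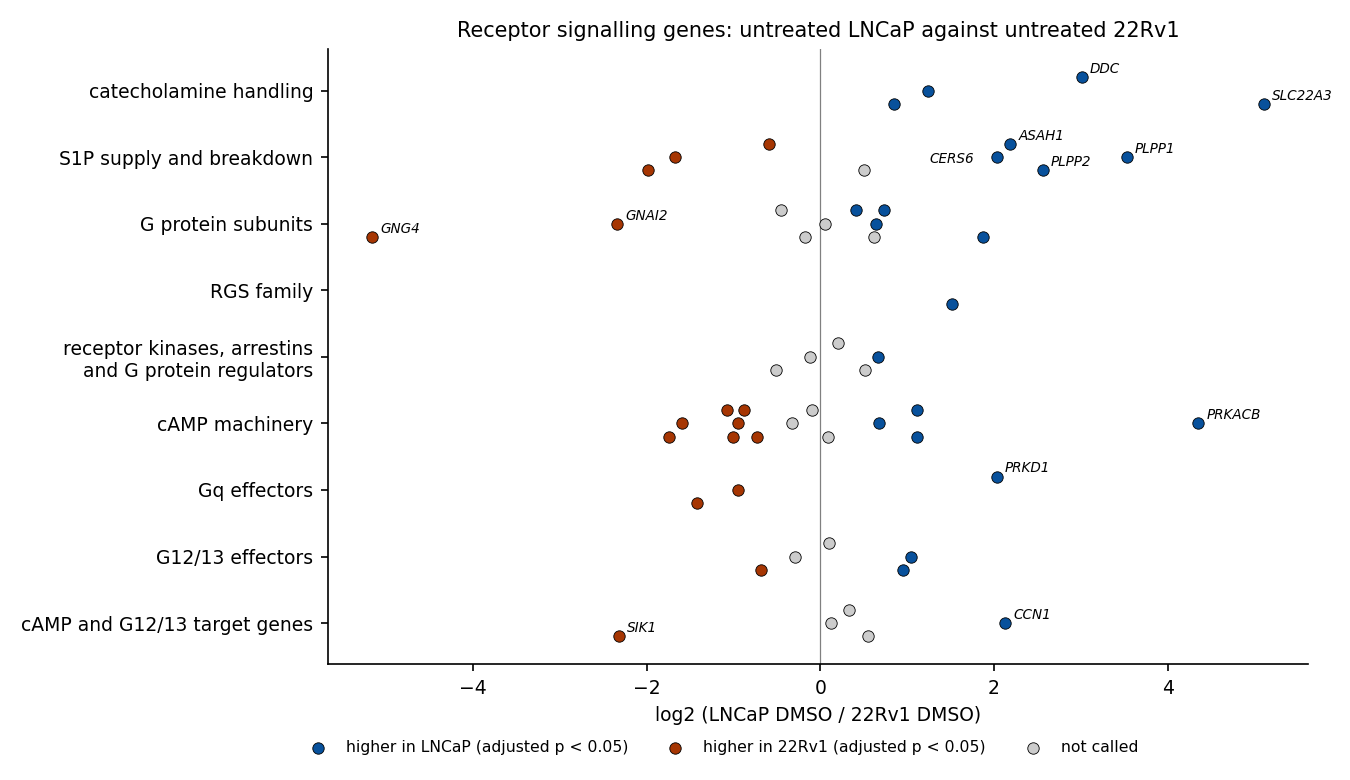
Log2 ratio of untreated LNCaP to untreated 22Rv1 (horizontal axis) for 55 tested genes of 9 signalling lists with a fitted value, with 1 row per list and each point a gene coloured by call. SLC22A3 (5.11) and PRKACB (4.35) lay farthest to the LNCaP side and GNG4 (-5.16) farthest to the 22Rv1 side.

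Genes with the pattern most like that of each member were ranked by Pearson's r of log2 CPM over the 14 libraries. For ADRA2A they were SEC11C (0.95), DPP7, GATA2 and HSD11B2 (0.90 each) and NPDC1 (0.89). For S1PR3 they were SERINC2 (0.95), MBOAT7, ATP6V0E1 and TMEM276 (0.94 each) and DANCR (0.93). For RGS2 they were HSBP1, TNC and TMSB10 (0.97 each) and SERPINE2 and SFN (0.96 each). Libraries of a group share a line and a treatment, so these values mostly read group means.

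The groups behind these patterns differed. SEC11C was at 564 and 1630 CPM in control and treated LNCaP libraries and at 400.0 and 561 CPM in those of 22Rv1. SFN, near 0 in LNCaP like RGS2, was at 1.40 and 5.92 CPM there and at 78.4 and 331 CPM in 22Rv1. Between the members, r was 0.43 for ADRA2A and S1PR3, -0.57 for ADRA2A and RGS2 and -0.76 for S1PR3 and RGS2. These values also mostly read group means, with many libraries near 0. S1PR3 had at most 1 count per 22Rv1 library, RGS2 at most 4 per LNCaP library and ADRA2A 2 in each PC3 library.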

How the data were processed

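RNA of 14 libraries was measured by BRB-seq. Reads were aligned and counted by the authors with STARsolo (genome GRCh38.p13, annotation GENCODE 43, per the labels and methods), and raw counts of 62703 genes were deposited. Whether molecular identifiers were collapsed is not given in the sources used here, so intervals and floors cover counting error only. A second deposited table holds log2 CPM for 9638 genes, which TMM factors over 14 libraries with a prior count of 2 gave again to within 5e-14. Coordinates are from GENCODE release 44.

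Counts of the 12 LNCaP and 22Rv1 libraries were fitted in 1 model with a mean per group (edgeR 4.0.16, R 4.3.3, TMM, filterByExpr, quasi-likelihood test, 8 residual degrees of freedom, common biological coefficient of variation 11.1%). P-values were adjusted by the Benjamini-Hochberg method across 7086 genes, with a threshold of 0.05. Levels are CPM with TMM factors, as mean ± SD. No fitted fold change is printed for an arm whose libraries all had at most 3 counts, and ratios of summed counts carry exact intervals. PC3 had 1 library per arm and no test. The spread of replicate libraries exceeded counting error (chi-square per degree of freedom 1.29 to 2.44). Since identifiers may not have been collapsed, this cannot tell repeat libraries of the same culture from separate cultures. All libraries were kept as the labelled replicates. Grouping followed the labels.

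Members and lists were chosen with earlier results of these data known. Named genes were the members, listed genes called with treatment, the 3 listed genes per list with the smallest adjusted p between untreated lines, adrenergic and lysophospholipid receptors, and the 5 genes most like each member with a mean of at least 20 counts. GNAI1 and GNAI3 were named in addition, as the other Gi subunits tested beside GNAI2. RGS5 has 2 entries with this symbol, and the protein-coding one was used. Alternatives were a replicate block, DESeq2 size factors, library totals, no filter, a minimum of 10 counts per library, separate fits per line, a fit with PC3, thinning to 246063 counts, the DESeq2 1.42.0 Wald test, limma-trend (limma 3.58.1) on the deposited log2 values, and each library left out. The results of some genes in the lists are not reported here. The models were tested on simulated data.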

Additional observations from a re-analysis of the deposited data

Results flagged for a closer look

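The response of ADRA2A to SEL120-34A differed between the lines by 3.63 ± 0.31 on the log2 scale (LNCaP minus 22Rv1). Every treated LNCaP library was above every control library (513 to 873 against 70.7 to 137 CPM), and every treated 22Rv1 library was below every control (51.5 to 68.5 against 103 to 114 CPM). Among the 7086 tested genes, arms did not overlap, in either direction, for 19.4% in LNCaP and 23.0% in 22Rv1. The fall in 22Rv1 was not called in the main fit and was called in 9 of 22 alternatives. ADRA2A was selected with the difference of responses known, so no test of that difference is given.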

How the results depend on the processing

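All fitted log2 changes of ADRA2A, S1PR3 and RGS2 kept their direction in each alternative run, except ADRA2A between untreated lines, which turned from -0.08 to 0.08 without LNCaP DMSO replicate 2 and to 0.03 without LNCaP DMSO replicate 3 (range -0.41 to 0.08 with 1 library left out). Leaving out 1 library moved the ADRA2A difference of responses to between 3.47 and 3.97, the latter without LNCaP DMSO replicate 1. RGS2 in 22Rv1 was 1.83 on the log2 scale at equal depth, against 2.0. In LNCaP at equal depth, ADRA2A was 2.87 against 2.83 and S1PR3 was 1.84 against 2.01.

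The listed genes that rose in LNCaP (4) became 2 with library totals and 1 each with at least 10 counts in every library, at equal depth, with DESeq2's Wald test and with limma-trend, and 2 to 4 with 1 library left out. The count was 2 without any 1 of LNCaP DMSO replicates 1, 2 or 3 or LNCaP SEL120-34A replicates 1 or 2. Those that rose in 22Rv1 (2) became 1 with library totals, at equal depth and with DESeq2, 0 with at least 10 counts and with limma-trend, and 1 to 3 with 1 library left out. The count was 1 without 22Rv1 DMSO replicate 3 or 22Rv1 SEL120-34A replicate 1. Those that fell in 22Rv1 (0) became 2 with library totals, 1 with at least 10 counts, 1 at equal depth and 1 without 22Rv1 DMSO replicate 2 (range 0 to 1). Between untreated lines 26 became 8 and 18 became 5 with at least 10 counts, since fewer genes were tested. For the other changes the cause was not tested.

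Of the 5 genes most like ADRA2A, 1 was kept with Spearman's rank correlation and 0 over the 12 LNCaP and 22Rv1 libraries. For S1PR3 these counts were 3 and 1, and for RGS2 0 and 0.

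Same-numbered replicates did not deviate together (correlations -0.10 to 0.12, 2 of 18 above 0.1). With the replicate number as a block, ADRA2A was 2.83 in LNCaP and -0.83 in 22Rv1. The block left 4 listed genes that rose in LNCaP and 2 in 22Rv1.

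Depth limits S1PR3 in 22Rv1, RGS2 in LNCaP and ADRA2A in PC3, which had at most 4 counts per library.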

Other observations

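In PC3, which had 1 library per arm and so no test, CCN1 was at 754 and 743 CPM with DMSO and SEL120-34A and GNAI2 at 392 and 302 CPM. PRKCH had 36 and 24 counts (39.2 and 42.1 CPM), against at most 3 counts in any 22Rv1 library. RGS5 had 6 and 5 counts, so PC3, unlike 22Rv1, had RGS2 with little RGS5.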
